A study of Mus musculus with 16 samples.

Results

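The genes described are 46 peroxins and other peroxisomal enzymes, chosen by symbol from a list of known peroxisomal genes: 14 genes of peroxisome biogenesis and 32 enzymes and carriers of the organelle. Of these, 31 had at least 1 probe on the array, 11 for biogenesis and 20 for enzymes and carriers, through 44 probes whose annotation named that gene alone. The other 15 had no such probe and are not analysed here: Pex2, Pex7 and Pex13 of the import machinery, and Abcd2, Abcd4, Agxt, Baat, Crot, Ddo, Decr2, Hao2, Pipox, Prdx5, Slc25a17 and Uox. All 31 passed the filter on missing values, which asked for both dye orientations in at least 3 mice after spots over 10 in absolute size were set to missing. That limit on size removed 1 spot of Pex11a and 1 of Mlycd, each of which had 1 more array missing in the same mouse and orientation, and left both genes with 3 mice. The array measured 9846 named genes in all.

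The mutant samples were total kidney RNA of 4 males labelled MFP2-/-, and the reference was a pool of the same tissue from 5 wild-type males, all 15 weeks old. The pool carried the strain name Swiss strain SWR/Ola Hsd, while the mutants carried only the genotype as their strain, so their genetic background is not given in the labels and a difference in background cannot be told apart from the genotype. Hsd17b4 encodes MFP2, multifunctional protein 2, an enzyme of the peroxisome that hydrates and dehydrogenates acyl-CoAs of very long chain fatty acids, branched fatty acids and bile acid precursors during beta-oxidation. Every mutant went on 4 2-colour cDNA arrays, 2 in either dye orientation, for 16 arrays with 19737 to 20228 values each. The values are log ratios, read as log2 of mutant over pool. Each array was centred on its median and the 4 arrays of a mouse were averaged, so n is 4 mice.

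Peroxisomes import their matrix enzymes already folded. The receptors Pex5 and Pex7 bind a targeting signal on the enzyme, dock at the membrane on Pex13 and Pex14, and are returned to the cytosol by the ubiquitin ligases Pex2 and Pex10 and the ATPase Pex6. Membrane proteins enter through Pex3, Pex16 and Pex19, and existing organelles multiply by growth and division with the help of the Pex11 proteins. Kidney, above all the proximal tubule, is rich in peroxisomes and in their oxidases, and nuclear receptors of the PPAR family are known to raise many peroxisomal genes when fatty acids build up.

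The direction of the ratio and the log base are inferred, since neither is given in the sources used here. The basis was that spots with 1 channel at a floor were positive on every array with the mutant in Cy5 and negative on every array with it in Cy3. This takes the floored channel to be Cy3 on every array, which was not tested. Were it the pool on every array, Cy5 over Cy3 would give the same signs. Array correlations did not favour the inferred direction. Arrays with swapped dyes had a median Spearman rho of -0.157 within a mouse and -0.101 across mice. Probe 4590 of Hsd17b4, the gene named by the genotype, bears on the labels and on the direction. It was below 0 on all 4 arrays of mouse 1, at -1.94 to -1.37, and on all 4 arrays of mouse 2, at -2.08 to -1.10, whatever the dye. Read as Cy5 over Cy3, those of these arrays with the mutant in Cy3 would be above 0. The probe lay between -0.23 and 0.07 in mouse 3 and between -1.15 and 0.47 in mouse 4. Probe 1446 of the same gene was not low, at a mean of 0.43. The place of either probe relative to the altered part of the gene is not known here, so the mice are called by their labels throughout. Of the alternatives tried, reading every value as Cy5 over Cy3 moved the largest number of members by more than their spread between mice, 9 of 31.

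Most members of both kinds had small mean ratios in these kidneys. Of 31 measured members, 30 had a mean log2 ratio between -0.25 and 0.25, and the exception was Pex11a, a division factor, at 0.84. The share of all named genes in that range was not counted, so it is not read as particular to the members. Hsd17b4, the gene named by the genotype, also lay within it at -0.24. The 95% intervals of some members ran beyond it, up to 0.51 for Mlycd and down to -0.37 for Gstk1. None of the 31 passed the adjusted threshold of 0.05 in limma's test of the mean against 0, and 0% of the 16140 genes and unnamed probes tested did so. The smallest adjusted p was 0.548 among the members and 0.327 in the table. At an unadjusted limma p under 0.05 there were 4 higher members, or 12.9%, against 5.83% of the table and 6.44% of named genes. No member was lower at that level, against 3.21% of the table and 2.46% of named genes. The 4 were Pex11a, Pex19, Eci2 and Ephx2. Their number fell to 1 without mouse 3, when only Ephx2 remained below 0.05, and to 1 without mouse 4, when only Pex19 did. Pex11a could not be fitted in either case, because it was measured in 3 mice.

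The signs leaned upward. A mean above 0 was found in 23 of 31 members, or 74.2%, against 50.1% of the table and 54.1% of named genes. Read as Cy5 over Cy3 it was 20 of 31, or 64.5%, against 45.6% of the table. Among the 29 members with a value in every mouse, 7 were above 0 in all 4 mice, or 24.1%, against 10% of the table and 11.6% of named genes. These were Pex19, Pxmp4, Hacl1, Gnpat, Nudt7, Idh1 and Ephx2. Of these, Pxmp4, Gnpat, Idh1 and Ephx2 had 2 probes each, and each had a probe below 0 in 1 or more mice. Taken 1 by 1, 9 of the 42 member probes with a value in every mouse were above 0 in all 4. That was 21.4%, against 10% of the table. The 2 members below 0 in all 4 mice, Pex5 and Pex26, made up 6.9%, against 9.42% of the table and 8.01% of named genes. Read as Cy5 over Cy3, 8 of the 29 were above 0 in all 4 mice, against 13.6% of the table, and 2 were below, against 17.7%. Without mouse 1, 14 of 30 members were above 0 in the other mice, where the share of the table was 17.5%. Without mouse 2, 4 of 30 were below 0 in the others, against 14.5% of the table. The members are parts of the same organelle and were measured in the same RNA, so they are not independent of each other, and no test was made of these shares.

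**Figure D1:**
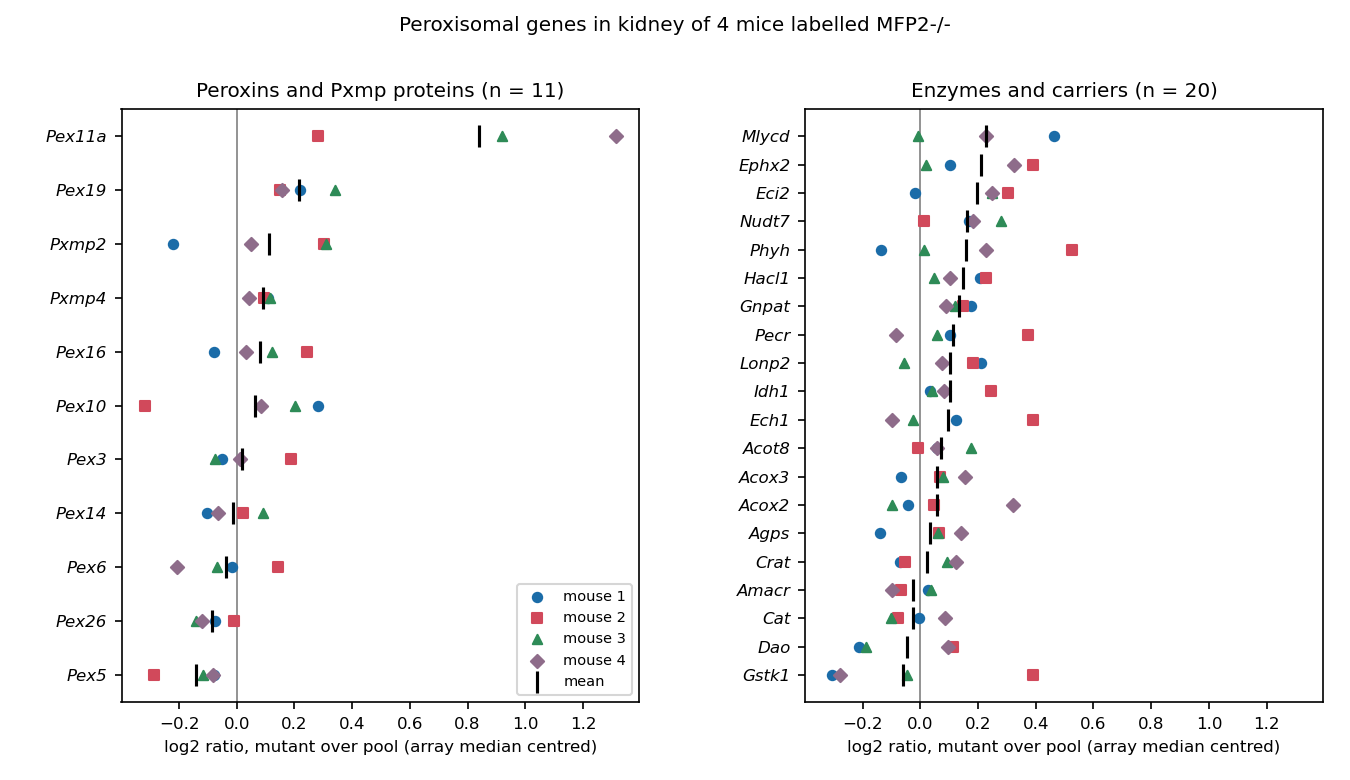
Log2 ratio of mutant over pool (horizontal axis) of each measured member, in 1 panel for the 11 peroxins and Pxmp proteins and 1 for the 20 enzymes and carriers; symbols are mice, each the average of its arrays, and the black bar is the mean over mice. All members except Pex11a have means between -0.25 and 0.25, and Pex11a, which lacks a value for mouse 1, has values of 0.28, 0.92 and 1.31.

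Among the biogenesis genes, 7 of 11 had a mean above 0, where the share of named genes was 54.1%. The median was 0.06, beside 0.01 over all named genes. It is the value of Pex10, whose dye orientations differed widely, and it was 0.035 with the mutant in Cy5 only and 0.006 in Cy3 only. By mouse the biogenesis median was -0.06, 0.14, 0.12 and 0.03 in mice 1 to 4. The import receptors and docking factors lay at or below the pool. Pex5, the cytosolic receptor for enzymes with a C-terminal targeting signal, lay at log2 ratios of -0.08, -0.29, -0.12 and -0.08 in mice 1, 2, 3 and 4, with a mean of -0.14 ± 0.10 (SD, n = 4). Every mouse was below 0, and mouse 2 was the lowest. The limma p of Pex5 was 0.0682 and its 95% interval ran from -0.30 to 0.02. Pex14, the docking protein that receives Pex5, had -0.10, 0.02, 0.09 and -0.07, with a mean of -0.01 ± 0.09 (SD, n = 4). Its 2 probes had means of 0.06 and -0.09, so they lay on either side of 0.

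The receptor recycling genes had means on both sides of 0. Pex26, the membrane anchor of the export ATPase, was below 0 in every mouse at -0.07, -0.01, -0.14 and -0.12, with a mean of -0.09 ± 0.06 (SD, n = 4). Pex6, an ATPase that pulls the receptor out of the membrane, had a mean of -0.04 ± 0.14. Pex10, a ubiquitin ligase of the import complex, had 0.28, -0.32, 0.20 and 0.09, with a mean of 0.06 ± 0.27 (SD, n = 4). Mouse 2 stood below the other 3 mice. Of the 29 members tested for a dye effect, Pex10 had the largest: it averaged -0.46 with the mutant in Cy5 but 0.58 on the swapped arrays, and all 8 arrays of the first kind were below 0 while 7 of the 8 of the second kind were above 0. The dye term had a limma adjusted p of 0.00579.

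The genes of membrane protein insertion had means above 0. Pex19, the soluble chaperone and receptor for newly made membrane proteins, had 0.22, 0.15, 0.34 and 0.16 in mice 1 to 4, with a mean of 0.22 ± 0.09 (SD, n = 4), a fold of 1.16. All 4 mice were above 0 and mouse 3 was the highest. The limma p was 0.0129, the adjusted p 0.548, and the 95% interval 0.07 to 0.37. Its mean was 0.30 with the mutant in Cy5 and 0.13 with the dyes swapped. Leaving out mouse 1 gave a p of 0.0381, mouse 2 a p of 0.0175 and mouse 4 a p of 0.0319, while leaving out mouse 3 gave a p above 0.05. Read as Cy5 over Cy3, the mean was 0.08. Pex16, which recruits Pex3 to the membrane, had a mean of 0.08 ± 0.14. Pex3, the membrane anchor on which Pex19 docks, had -0.05, 0.19, -0.07 and 0.01, with a mean of 0.02 ± 0.12 (SD, n = 4). The 2 probes of Pex3 had means of -0.001 and 0.04.

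Pex11a, which shapes and elongates the peroxisomal membrane before division and is a known target of PPAR receptors, had the largest ratio of the members. Its log2 ratios were 0.28, 0.92 and 1.31 in mice 2, 3 and 4, with a mean of 0.84 ± 0.52 (SD, n = 3), a fold of 1.79 with a 95% interval of 1.24 to 2.58. All 3 mice were above 0 and they were widely spread. The limma p was 0.0096 and the adjusted p 0.548. Both the p and the interval use limma's standard error of 0.204, which borrows from the spread of other genes. The spread of these 3 mice alone would give a larger error and a wider interval. The probe was also noisier than most, with an SD between repeat arrays of 0.91 beside a median of 0.25 over all named genes. The mean stood at percentile 99.9 of the 9846 named genes.

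The values behind Pex11a were few and depended on the dye. Its only probe gave a value on 11 of 16 arrays. With the mutant in Cy3 the values were 2.22 and 2.67 in mouse 1, 0.90 in mouse 2, 2.31 and 0.63 in mouse 3, and 1.95 and 2.21 in mouse 4. With the mutant in Cy5 they were -0.34 in mouse 2, 0.37 in mouse 3, and 1.49 and -0.39 in mouse 4. All 7 values with the mutant in Cy3 were above 0, and 2 of the 4 with it in Cy5 were below 0. The means of the orientations were 1.72 in Cy3, which includes mouse 1, and 0.19 in Cy5, which covers mice 2, 3 and 4 only. Mouse 1 entered no mean, since its Cy5 arrays gave no usable value: 1 spot was missing and the other held the floor value of that array, 16.6, which was treated as missing. Kept in, that spot raised the mean to 2.997. Read as Cy5 over Cy3, the mean was -0.65 with a limma p of 0.000488, so the sign of Pex11a rests on the inferred direction. Another fit took single arrays, 11 for Pex11a, and treated the mouse as a random block, so it draws on the Cy3 arrays of mouse 1. There Pex11a had a log2 ratio of 1.06 and a limma adjusted p of 0.0484. It was the 1 member past the threshold, among 221 calls in the table, where the fit of mouse values had 0. The block fit used a correlation of 0.035 between arrays of 1 mouse. It thus counted them nearly as separate replicates, although they share RNA.

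**Figure D2:**
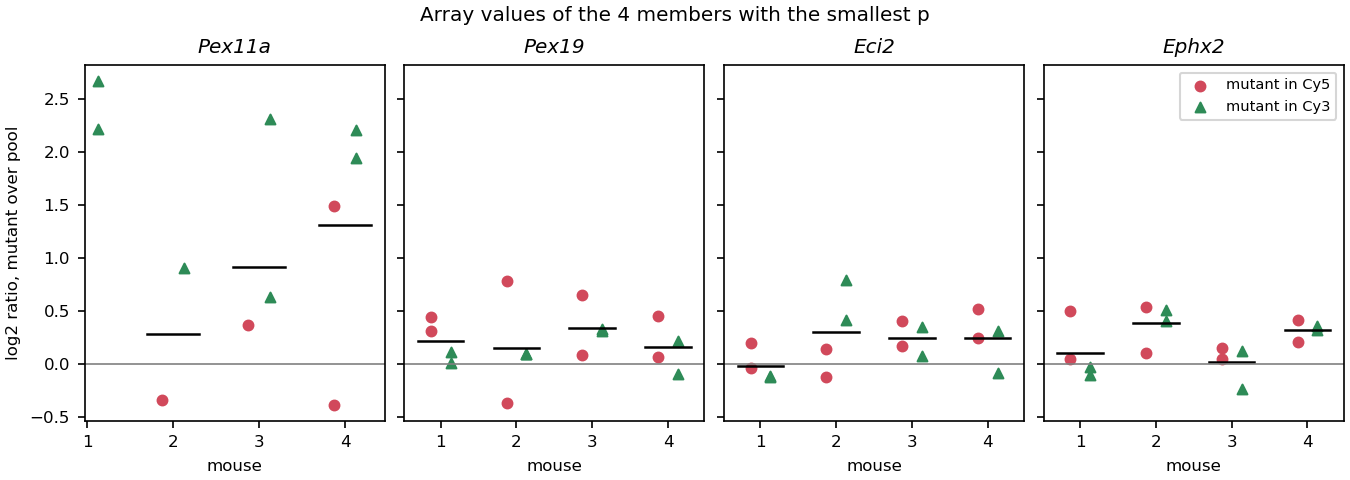
Log2 ratio of mutant over pool on each array (vertical axis) for the 4 members with the smallest p, with mice along the horizontal axis; circles are arrays with the mutant in Cy5, triangles arrays with it in Cy3, and the bar is the value of the mouse. Pex11a values run from -0.39 to 2.67 and the triangles lie above the circles in mice 2, 3 and 4, while Pex19, Eci2 and Ephx2 stay between -0.37 and 0.79.

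The 100 bases just before the start of Pex11a are shown because this gene had the largest ratio; they were taken from the RefSeq promoter table of assembly GRCm38.p6, chr7:79743132-79743231 on the minus strand, with CG pairs in capitals.
Pex11a: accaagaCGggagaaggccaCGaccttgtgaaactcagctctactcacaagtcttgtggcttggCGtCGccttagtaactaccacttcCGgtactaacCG
The stretch holds 6 CG pairs. Of the measured members, 26 had a window in that table. The 250 bases before the start held a median of 8 CG pairs in the 9 biogenesis genes with a window and of 15 in the 17 enzymes and carriers, beside 6 over all 32851 windows, and Pex11a had 8.

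The membrane proteins Pxmp2 and Pxmp4 had means above 0. Pxmp2, a channel of the peroxisomal membrane, had -0.22, 0.30, 0.31 and 0.05, with a mean of 0.11 ± 0.25 (SD, n = 4). Mouse 1 was below 0 and the other 3 above, and limma's F-test between mice gave an unadjusted p of 0.0351. Pxmp4 had 0.11, 0.09, 0.12 and 0.04, with a mean of 0.09 ± 0.03 (SD, n = 4), the narrowest spread between mice of the 31 members. That narrow spread came from averaging 2 probes that differed in their order of mice. Probe 5672 had 0.14, 0.11, -0.15 and -0.08, with an SD of 0.140. Probe 6954 had 0.07, 0.08, 0.38 and 0.17, with an SD of 0.141. The mean of Pxmp4 came from arrays with the mutant in Cy5, where it was 0.17, and was 0.006 on the others.

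Among the enzymes and carriers, 16 of 20 had a mean above 0, where the share of named genes was 54.1%. The counts by role below rest on few genes each. The median of the enzymes and carriers was 0.10, and by mouse it was 0.03, 0.15, 0.04 and 0.10 in mice 1 to 4. The median was 0.05 without mouse 2 and 0.03 when values were read as Cy5 over Cy3.

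Enzymes of branched-chain and bile acid breakdown had 4 of 5 means above 0. Phyh, which hydroxylates phytanoyl-CoA at the start of alpha-oxidation, had -0.14, 0.53, 0.01 and 0.23 in mice 1 to 4, with a mean of 0.16 ± 0.29 (SD, n = 4). Mouse 2 was the highest and mouse 1 the lowest. The mice differed at an unadjusted p of 0.00369 in limma's F-test, the smallest of the members, and an adjusted p of 0.17. Hacl1, the lyase that cleaves the product of Phyh, was above 0 in every mouse at 0.21, 0.23, 0.05 and 0.10, with a mean of 0.15 ± 0.09 (SD, n = 4). Its limma p was 0.0549, and its mean was 0.28 with the mutant in Cy5 and 0.01 with the dyes swapped. Amacr, the racemase that turns branched acyl-CoAs into the form the oxidases accept, had 0.03, -0.07, 0.04 and -0.10, with a mean of -0.03 ± 0.07 (SD, n = 4). Acox2 and Acox3, the oxidases of bile acid intermediates and of pristanoyl-CoA, had means of 0.06 ± 0.19 and 0.06 ± 0.09. The 3 probes of Acox3 had means of -0.06, 0.05 and 0.18.

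Both enzymes that start ether lipid synthesis had means above 0. Gnpat, which acylates dihydroxyacetone phosphate, had 0.17, 0.15, 0.12 and 0.09, with a mean of 0.13 ± 0.04 (SD, n = 4), and a limma p of 0.0519. The 4 mice were close to each other in this average of 2 probes, but not within the probes. Probe 9747 had 0.04, -0.03, 0.18 and 0.11, and probe 12238 had 0.31, 0.32, 0.06 and 0.07. The orientations differed too, with a mean of 0.29 with the mutant in Cy5 and -0.03 with the dyes swapped. The dye term had a limma adjusted p of 0.032. Agps, which makes the ether bond in the next step, had -0.14, 0.07, 0.06 and 0.14, with a mean of 0.03 ± 0.12 (SD, n = 4). Its probes had means of 0.10 and -0.03.

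The auxiliary enzymes of unsaturated fatty acid oxidation had 3 of 3 means above 0. Eci2, an enoyl-CoA isomerase, had -0.02, 0.30, 0.25 and 0.25 in mice 1 to 4, with a mean of 0.20 ± 0.14 (SD, n = 4), a fold of 1.14. Mouse 1 stood at the pool and the other 3 above it. The limma p was 0.0395 and the adjusted p 0.548, with a 95% interval of 0.01 to 0.38. Both orientations gave nearly the same mean, 0.19 and 0.20. Without mouse 1 the mean was 0.27. Ech1, a dienoyl-CoA isomerase, had 0.13, 0.39, -0.03 and -0.10, with a mean of 0.10 ± 0.22 (SD, n = 4). Its means by orientation were 0.31 and -0.11, and the dye term had a limma adjusted p of 0.0454. Pecr, an enoyl-CoA reductase, had a mean of 0.11 ± 0.19. The 100 bases before the start of Eci2, chr13:34994145-34994244 on the minus strand of GRCm38.p6 in the RefSeq table, are shown as the other window among the 4 members with the smallest p, with CG pairs in capitals.
Eci2: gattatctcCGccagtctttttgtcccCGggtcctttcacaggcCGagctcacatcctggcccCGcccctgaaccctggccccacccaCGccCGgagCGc

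The enzymes that release or transfer acyl groups had 4 of 4 means above 0. Mlycd, which decarboxylates malonyl-CoA, had 0.46, -0.01 and 0.23 in mice 1, 3 and 4, with a mean of 0.23 ± 0.24 (SD, n = 3). It was the least steady member: its mean was -0.43 in the first repeats and 0.89 in the second, and its array values ran from -1.11 to 2.37. Mouse 2 lacked values in Cy5, where 1 of the 2 spots held the floor value. With that spot kept the mean was 2.30, and read as Cy5 over Cy3 it was -0.36, so its place among the members within 0.25 of the pool rests on the floor rule and the inferred direction. Nudt7, which cleaves CoA, was above 0 in every mouse at 0.17, 0.01, 0.28 and 0.18, with a mean of 0.16 ± 0.11 (SD, n = 4), and a limma p of 0.0519. It averaged -0.04 with the mutant in Cy5 and 0.36 with the dyes swapped. Crat, the carnitine acetyltransferase, had -0.07, -0.05, 0.09 and 0.12, with a mean of 0.02 ± 0.10 (SD, n = 4), and its 3 probes had means of -0.07, -0.01 and 0.15. Acot8, an acyl-CoA thioesterase, had a mean of 0.07 ± 0.08.

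Dao, the D-amino acid oxidase of the proximal tubule, was the only measured member of the 6 amino acid, hydroxy acid and urate oxidation genes. It had -0.21, 0.11, -0.19 and 0.10, with a mean of -0.05 ± 0.18 (SD, n = 4). Mice 1 and 3 were below 0 and mice 2 and 4 above. Lonp2, the protease that processes and degrades matrix proteins, had 0.21, 0.18, -0.06 and 0.08, with a mean of 0.10 ± 0.12 (SD, n = 4).

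The redox and detoxification enzymes had 2 of 4 means above 0. Ephx2, the soluble epoxide hydrolase, had 0.10, 0.39, 0.02 and 0.32, with a mean of 0.21 ± 0.18 (SD, n = 4), a fold of 1.16. All 4 mice were above 0, and mice 2 and 4 were higher than mice 1 and 3. The limma p was 0.0451 and the adjusted p 0.548. Both probes had means above 0, 0.16 and 0.26, and so had both orientations, 0.25 and 0.17. The first of these probes was below 0 in mouse 3, at -0.04. Idh1, which supplies NADPH, had 0.04, 0.25, 0.04 and 0.08, with a mean of 0.10 ± 0.10 (SD, n = 4). Its probes differed, with means of -0.02 and 0.22. Gstk1, a glutathione transferase, had -0.31, 0.39, -0.05 and -0.28, with a mean of -0.06 ± 0.32 (SD, n = 4), the widest spread among members measured in all 4 mice. Only mouse 2 was above 0, and the F-test between mice gave an unadjusted p of 0.0172. Without mouse 2 the mean was -0.21 at a limma p of 0.0442.

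Catalase, Cat, which breaks down the hydrogen peroxide made by the oxidases, had a mean of -0.03 ± 0.08 (SD, n = 4) and a 95% interval of -0.17 to 0.13, which is a fold of 0.886 to 1.09 for these mice against this pool. Its promoter is shown because it is 1 of 2 members with a match to the direct repeat that PPAR receptors are known to bind, AGGTCA written 2 times with 1 base between, searched on both strands with up to 2 mismatches in 12 bases. The match lies 204 to 192 bases before the start, in capitals, within chr2:103485321-103485381 on the minus strand of GRCm38.p6 in the RefSeq table.
Cat: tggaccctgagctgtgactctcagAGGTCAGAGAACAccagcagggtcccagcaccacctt
The other match, AGGACAGAGGTGA, lay in the Acox2 window, and does not lie wholly before the start. Of the 37 members in the list with a window, 2 had a match, or 5.41%, beside 4.4% of all genes in the table. With at most 1 mismatch there was none, beside 0.554% of all windows. These are matches of letters in a short window and say nothing of binding elsewhere.

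**Figure D3:**
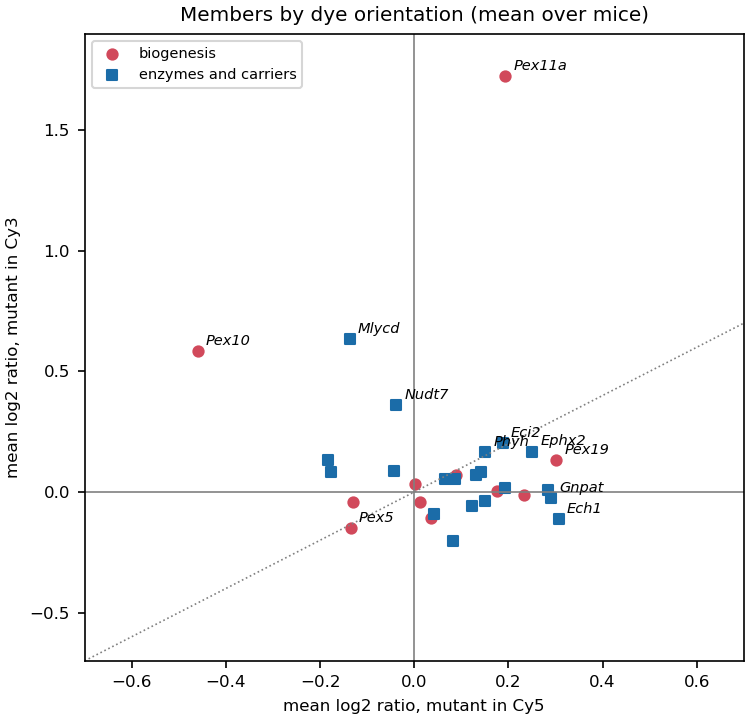
Mean log2 ratio over mice of each measured member with the mutant in Cy5 (horizontal axis) and in Cy3 (vertical axis); circles are biogenesis genes, squares enzymes and carriers, and the dotted line marks equal values. Of 31 members, 14 lie above 0 on both axes, 2 below 0 on both, and 15 have opposite signs, with Pex11a and Pex10 farthest from the line. The Cy3 mean of Pex11a includes mouse 1 and that of Mlycd includes mouse 2, each without a Cy5 value for that gene.

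The dye orientations limit how far single members can be read. With the mutant in Cy5, 23 of 31 members had a mean above 0, or 74.2%, against 45.4% of the table and 47.9% of named genes. With it in Cy3 there were 20 of 31, or 64.5%, nearer to the 55.5% of the table and 58.2% of named genes. The upward lean was thus stronger on the arrays with the mutant in Cy5. Both orientations were above 0 in 14 members, or 45.2%, against 23.1% of named genes, and both were below 0 in 2, Pex5 and Pex26, or 6.45%, against 17.3%. The orientations differed in sign in the other 15. The dye term passed an adjusted p of 0.05 in 3 of 29 members, Pex10, Gnpat and Ech1, or 10.3%, against 8.4% of the table. Repeat arrays of 1 mouse in 1 orientation had a median SD of 0.22 over the members and 0.25 over all named genes. The median SD between mice was 0.12 and 0.15, but each mouse value averages up to 4 arrays, so the SDs of single arrays and of mice are not on the same footing. Across probes, array pairs of the same mouse had a median Spearman rho of 0.34 in the same orientation and -0.16 in opposite ones. Array pairs of different mice had medians of 0.18 and -0.10, so arrays were more alike across mice within an orientation than within a mouse across orientations.

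Differences between mice were tested against the error between arrays. In limma's F-test none of 29 members passed the adjusted threshold, against 0.189% of the table, and 3 had an unadjusted p under 0.05, or 10.3%, against 11.2% of the table. Those 3 were Phyh, Gstk1 and Pxmp2, and all had mouse 1 as the lowest. Mouse 2 held the highest value in 13 of 29 members, or 44.8%, against 33.9% of named genes, and mouse 1 the lowest in 11, or 37.9%, against 26.6%.

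Other peroxisomal genes and markers of kidney cell types were read in the same mice. Of the straight-chain beta-oxidation list, 9 of 15 genes were measured, with a median of 0.20, and 5 had an unadjusted p under 0.05, all higher, where the share of the table was 5.83%. Slc27a2, an activating enzyme for very long chain fatty acids, had the smallest p of that list, 0.00594, with a mean of 0.41 ± 0.23. Acaa1a, a peroxisomal thiolase, had a mean of 0.34 ± 0.23 and a p of 0.0132. None of the list passed the adjusted threshold. Hsd17b4 itself had a mean over both probes of -0.24 ± 0.45 and an adjusted p of 0.655.

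The other lists lay nearer to the pool. Of the other peroxins and division factors, 6 of 11 were measured, with a median of 0.06, and 1 had an unadjusted p under 0.05: Fis1, a membrane receptor of the division machinery, at 0.21 ± 0.07 and a p of 0.0119. Mff, a receptor of the same machinery, followed at 0.11 ± 0.15 and a p of 0.179. Of the other peroxisomal enzymes, 8 of 15 were measured, with a median of -0.05 and no p under 0.05. The smallest were those of Tysnd1, a protease that processes imported enzymes, at -0.15 ± 0.17 and a p of 0.116, and Slc27a4, a fatty acid transport protein, at -0.10 ± 0.07 and a p of 0.13.

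**Figure D4:**
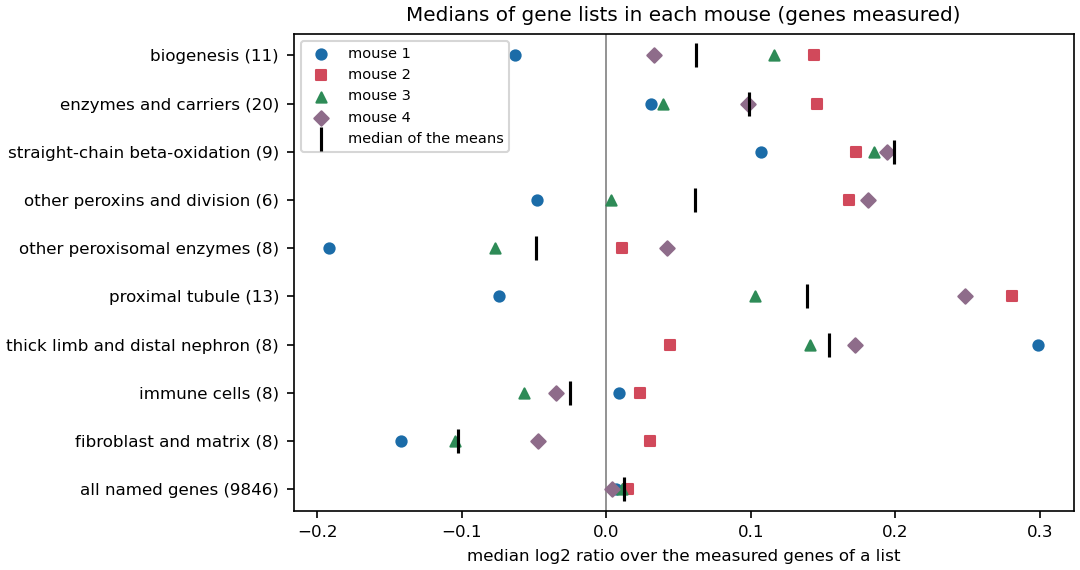
Median log2 ratio of mutant over pool (horizontal axis) over the measured genes of each list, with the number measured in parentheses; symbols are mice and the black bar is the median of the means over mice. The medians are 0.06 for biogenesis, 0.10 for enzymes and carriers, 0.20 for straight-chain beta-oxidation, 0.14 for proximal tubule markers and 0.01 for all named genes.

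Markers of the proximal tubule also lay above the pool on balance. Of 21 markers 13 were measured, 10 with a mean above 0, and they ranged from -0.20 to 0.66 with a median of 0.14. An unadjusted p under 0.05 was found in 5 higher and 2 lower of the 13. By mouse that median was -0.07, 0.28, 0.10 and 0.25, so mouse 1 was the lowest and mouse 2 the highest. The same mice were at the ends for the enzymes and carriers, where mice 1 and 3 were close at 0.03 and 0.04. They were also at the ends for the biogenesis genes and for the fibroblast and matrix markers, at -0.14 and 0.03 in the latter. Markers of the thick limb and distal nephron had a median of 0.15 over 8 of 15, with mouse 1 the highest at 0.30, and 3 of the 8 had an unadjusted p under 0.05, all higher. Immune markers had a median of -0.03 over 8 of 15, fibroblast and matrix markers -0.10 over 8 of 8, glomerular markers 0.16 over 3 of 7, adipocyte markers 0.02 over 4 of 6, liver markers 0.06 over 5 of 7, and red blood cell markers -0.21 over 2 of 5. Their part in the values of the members was not tested. In whole kidney, fewer cells of a type and less RNA per cell cannot be told apart, and since ratios hold no levels, the presence of kidney markers could not be checked.

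**Figure D5:**
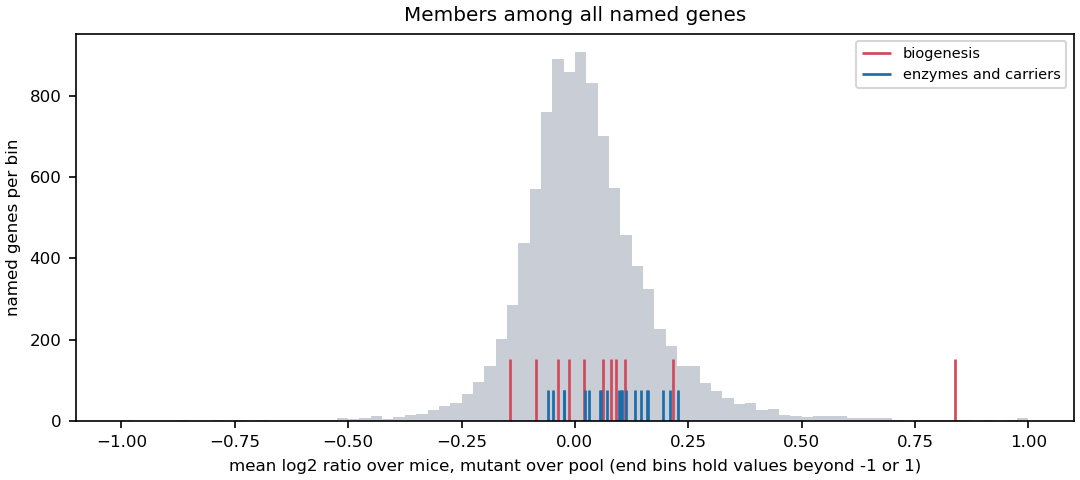
Distribution of the mean log2 ratio over mice (horizontal axis) of all 9846 named genes, as genes per bin, with a vertical line for each measured member, long for biogenesis and short for enzymes and carriers. The 9 genes beyond -1 or 1 are in the end bins; all members except Pex11a lie within the bulk of the distribution.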

How the data were processed

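Per the labels' protocols, total RNA was reverse transcribed and labelled indirectly with Cy3 or Cy5. The authors deposited log ratios per probe, 1 column per array, taken here as log2 of mutant over pool. How they corrected background and normalised, the log base and the direction of the ratio were not given in the sources used here. No intensities were used here. Probes were named through the platform annotation, updated by gene identifier to RefSeq GRCm38.p6. Values over 10 in absolute size, 510 floor spots, were set to missing. Arrays were centred on their medians, averaged within each orientation and then over both, and probes of a gene were averaged. Probes with both orientations in at least 3 mice were kept (20187). Each gene's mean over mice was set against 0 in a two-sided test of limma 3.58.1 (lmFit and eBayes, R 4.3.3), and p-values were adjusted by Benjamini-Hochberg over 16140 genes and unnamed probes. The pool is 1 control sample, so the spread among wild-type mice was not measured; the labels give each mutant mouse its own identifier, although the title and source name of mouse 1 carry different animal numbers. An F-test between mice used all 16 arrays with a dye term, so its error is that between arrays. Scripts were tested on simulated data.

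Members and lists were chosen with earlier results of these data known. Every measured member was named; values per mouse were given for members with an unadjusted p under 0.05 in either test, with the same sign in all 4 mice, or highest or lowest in their role, and values per probe where probe means differed in sign or by over 0.3. Of each list of other peroxisomal genes, the 2 with the smallest p were named; markers of cell types were given by list. Probe values of Pxmp4, Gnpat and Ephx2 were given as well. A planned description of protein targeting signals was not made. Alternatives changed centring, scale, probe averaging, filters, orientations, repeats, direction, floor spots, the prior, the replicate unit (duplicateCorrelation, statmod 1.5.0) and left out each mouse.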

Additional observations from a re-analysis of the deposited data

How the results depend on the processing

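No member passed the adjusted threshold under the alternatives run, except with the mouse as a random block, where 1 did. That fit counted the arrays of 1 mouse nearly as separate replicates. The 4 higher members at an unadjusted p under 0.05 became 2 without centring (4.67% of the table) and 2 with repeat 2 only (5.52%). They became 2 with values read as Cy5 over Cy3 (6.65%) and 1 to 4 when a mouse was left out (3.41% to 5.56%). When every probe was tested on its own there were 7 of 44 probes (5.83%). The lower members, 0 in the test as reported, became 1 without centring (4.5% of the table). They were 1 with the mutant in Cy5 only (9.15%) and 1 with repeat 1 only (2.63%). With values read as Cy5 over Cy3 they were 3 (9.68% of members, 13.5% of the table). When a mouse was left out they were 0 to 1 (1.87% to 3.39%). Members above 0 in every mouse numbered 7 (10% of the table). They were 5 without centring (7.89%), 5 with the median of arrays (9.68%) and 5 with repeat 1 only (8.36%). With the mutant in Cy5 only they were 8 (27.6% of members, 12.3% of the table). With it in Cy3 only they were 5, near the share of the table (16.1% of members, 15.4% of the table). When a mouse was left out they were 8 to 14 (14.7% to 17.5%). With a mouse left out fewer signs have to agree, so the share of the table rises as well. Members below 0 in every mouse numbered 2 (9.42% of the table). They were 1 with the median of arrays (9.8%) and 0 with the mutant in Cy3 only (12.9%). They were 1 with repeat 1 only (7.34%) and 1 with repeat 2 only (10.3%). When a mouse was left out they were 2 to 4 (14.2% to 18.1%). The median of the enzymes and carriers was 0.029 with values read as Cy5 over Cy3 and 0.05 to 0.12 when a mouse was left out; that of biogenesis was 0.00 to 0.04. Read as Cy5 over Cy3, 13 of 31 members changed sign; with the mutant in Cy5 only 8 did, and with it in Cy3 only 7 did. The causes were not tested. The same 4 mice carry every result, and the number of arrays limits precision; signal over background is not known here.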
